A study of Homo sapiens with 4 samples.

Results

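Transcripts of 45 DNA repair and damage checkpoint genes were followed in Jurkat cells, an established T-cell acute lymphoblastic leukaemia line, after exposure to GNE987. The genes were chosen by name from the 26733 rows of the gene expression table, with no threshold on their values. Earlier results of these data were known when they were chosen, and each gene had 1 row. They comprise 19 genes of homologous recombination, 6 of the damage checkpoint, 10 of the Fanconi anaemia pathway, 2 of mismatch repair, 5 of end joining and 3 of single-strand break repair. GNE987 is a bifunctional degrader: 1 end binds BET family bromodomains and the other recruits the ubiquitin ligase VHL. The treated group had 2 libraries of cells given 25 nmol GNE987 (the labels give no volume), and the control group had 2 libraries of cells labelled as not treated. The time is given as 24 h, polyadenylated RNA was sequenced, and a vehicle control is not named in the labels.

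Cells repair DNA by several routes. Homologous recombination copies a broken stretch from the sister chromatid and works mainly in S and G2 phase, while end joining religates broken ends at any stage of the cycle. The Fanconi anaemia pathway unhooks links between the 2 DNA strands and hands the break to recombination, mismatch repair removes replication errors, and the kinases ATM and ATR signal damage to the cell cycle. End joining also seals the breaks made during T-cell receptor gene rearrangement in developing thymocytes, the cells from which T-cell leukaemias arise.

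All 45 genes passed the filter on low counts. Total counts per library ranged from 16041022 to 18938465. The labelled cell type was checked against 12 T-cell markers, of which 11 had at least 10 counts in every library. Of these 12 markers 8 fell and 1 rose, and their summed level was 2487 and 2624 CPM (counts per one-millionth of the library, TMM-scaled) with GNE987 against 3770 and 3640 CPM without. Of 5 tested myeloid markers 3 rose and 0 fell, and their summed level over 6 markers was 142 and 147 CPM in the treated libraries, against 0.763 and 29.9 CPM in untreated replicates 1 and 2. Of 7 listed myeloid markers FCGR3A had no row, and none of the other 6 was at 0 in all libraries. Summed B-cell markers were at 97.8 and 107 CPM with and 41.5 and 51.6 CPM without GNE987, almost all of it CD79A, and fibroblast markers at 9.19 and 9.06 against 2.33 and 2.52 CPM. Erythroid and epithelial markers summed to at most 1.12 and 0.725 CPM. COL3A1 and KRT18 were at 0 in both treated libraries, while MS4A1, HBB, COL1A2, EPCAM and CDH1 were not analysed here. The part of these markers in the results below was not tested. The untreated libraries differed from each other. For 29 of the 32 repair genes that passed the threshold, replicate 2 was nearer to the treated mean than replicate 1 was. Its median position was 21.0% of the distance over the 32. The share over all tested genes was not taken, so this shift is not read as a trait of the repair genes.

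Repair transcripts were lower with GNE987 more often than higher. Of the 45 genes 26 fell and 6 rose at an adjusted p below 0.05 (edgeR quasi-likelihood test, Benjamini-Hochberg over 15910 genes), and 13 did not pass. Over all tested genes 37.2% were lower and 34.4% higher, 71.6% in either direction. The share of repair genes called in either direction, 71.1%, was thus near the background, while 57.8% were lower and 13.3% higher. Their median log2 fold change was -0.86, against -0.03 over all tested genes. With a change of at least 2-fold 20 fell and 2 rose, and such changes made up 27.6% (lower) and 24.6% (higher) of all genes. The treated and untreated libraries did not overlap for 41 of the 45 genes, or 91.1%, a share equal to the background of 91.1%. With library size alone in place of TMM, which moved the median of all genes from -0.03 to -0.41, 35 were lower and 3 higher. Without GNE987 replicate 1 the counts were 21 lower and 3 higher, and without GNE987 replicate 2 they were 20 and 3, when all genes called fell from 11387 to 6306 and 6370.

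**Figure D1:**
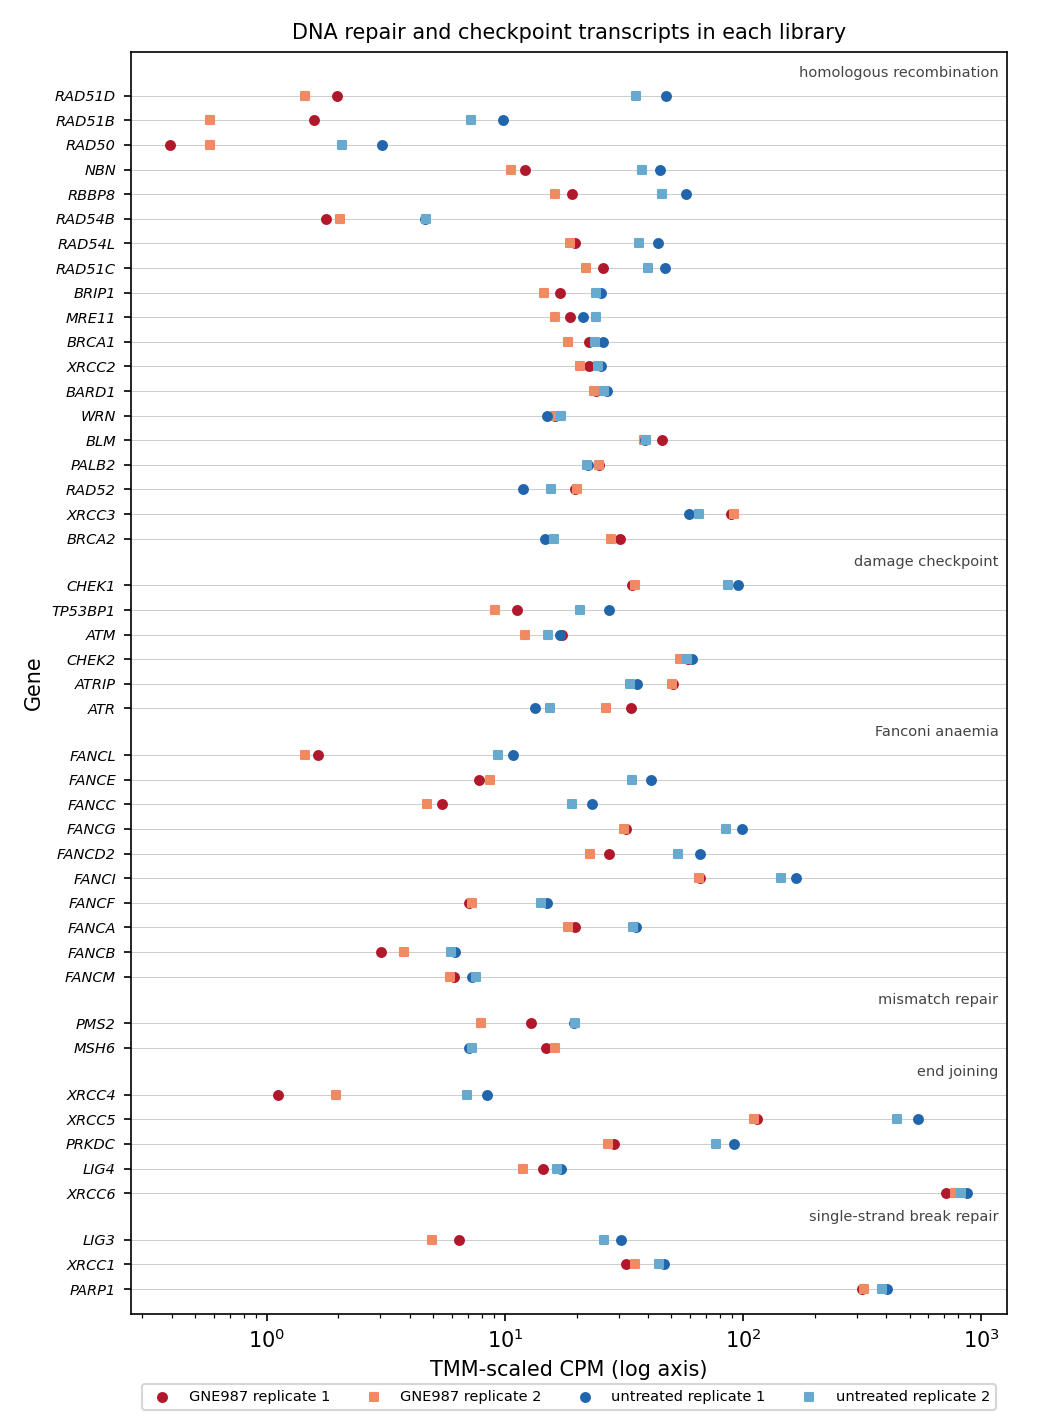
TMM-scaled CPM of the 45 genes (log axis) in each of the 4 libraries, grouped by repair route, with circles for replicate 1 and squares for replicate 2. The treated libraries of RAD51D lie at 1.97 and 1.45 CPM against 47.6 and 35.4 CPM without treatment, whereas the 4 libraries of WRN lie between 15.04 and 17.1 CPM.

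The counts by route are set beside shares of 37.2% lower and 34.4% higher over all tested genes. Fanconi anaemia genes fell in 9 of 10 cases and rose in 0, and their median log2 fold change was -1.25. End-joining genes fell in 3 of 5 cases (median -1.59) and single-strand break genes in 2 of 3 (median -0.43). Homologous recombination genes fell in 9 of 19 cases, rose in 3 and had a median of -0.38. Checkpoint genes fell in 2 and rose in 2 of 6 cases, and the mismatch repair pair split, with 1 higher and 1 lower. Without either treated library 1 recombination gene and 1 checkpoint gene were higher and 1 single-strand break gene was lower, and without GNE987 replicate 2 no mismatch gene was lower. With library size alone all 5 end-joining genes were lower, and 1 recombination and 1 checkpoint gene were higher. The median of recombination genes was -0.18 with upper-quartile scaling, -0.74 with library size alone and -0.074 with a filter of 10 CPM in 2 libraries, which left 16 of them. That of end-joining genes was -0.80 with this filter, which left 4, and that of single-strand break genes lay between -0.81 with library size alone and -0.23 with upper-quartile scaling. Whether the routes differed was not tested, since genes are not replicates.

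**Figure D2:**
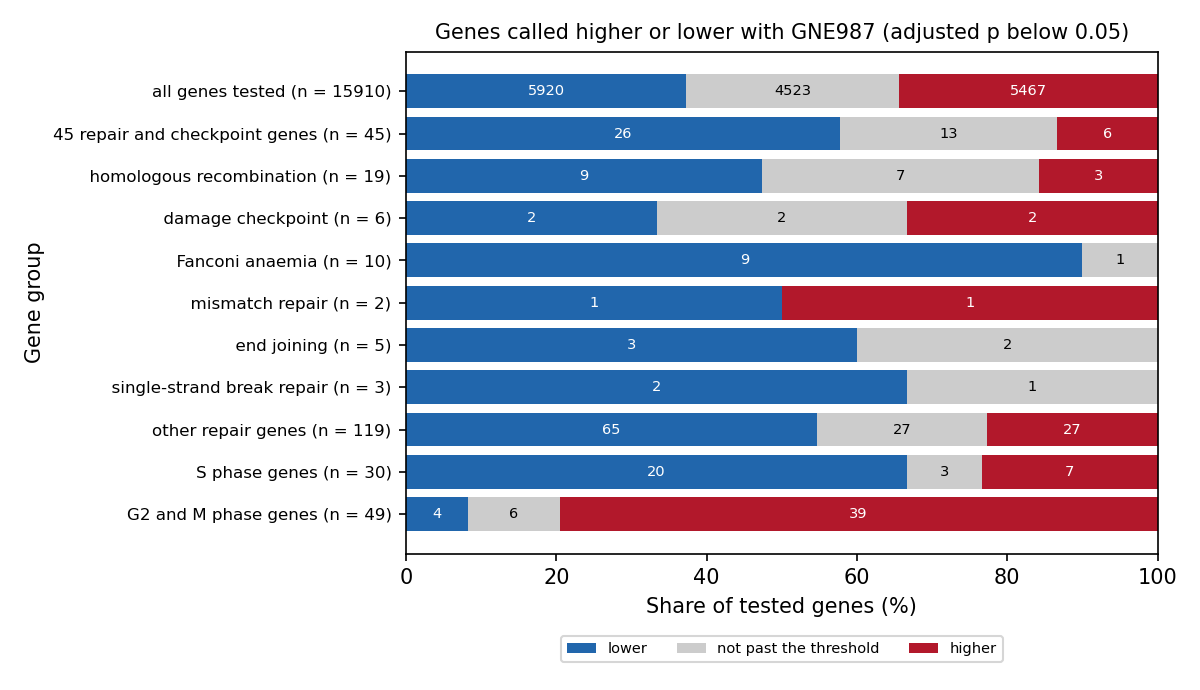
Share of tested genes (%) called lower (blue), higher (red) or not past the threshold (grey) at an adjusted p below 0.05, with gene numbers in the bars. The Fanconi anaemia bar holds 9 lower genes and 1 that did not pass, while the G2 and M phase bar holds 39 higher genes of 49.

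Promoter windows were available from RefSeq (GRCh38.p14) for 39 of the 45 genes, each from 250 bases before to 50 after a transcription start. The E2F motif, searched on both strands as TTTCCCGC, TTTCGCGC, TTTGCCGC and TTTGGCGC, was present in 6 of the 39 (15.4%) and in 5.10% of the 10551 tested genes with a window. E2F factors switch on replication and repair genes as cells enter S phase. Of the 6 genes FANCA, FANCD2 and PMS2 fell, MSH6 rose, and XRCC2 and XRCC6 did not pass. The ETS motif CCGGAAG was present in 11 of 39 (28.2%) against 19.1% of all, in 5 genes that fell, among them RAD51D, and in 2 that rose, ATR and BRCA2. The box CCAAT was found in 21 of 39 (53.8%) against 36.6% and the element TTTGAA of late cell cycle genes in 3 of 39 (7.69%) against 9.43%. A match describes the letters only, not binding. Stretches of 100 bases are shown for genes that hold the same motif and moved in opposite directions, with the motif in capitals on the strand of the gene, where a motif on the other strand reads as its complement in reverse. The E2F motif stands in FANCD2 (chr3:10026357-10026456, plus strand), FANCA (chr16:89816766-89816865, minus strand) and MSH6 (chr2:47783065-47783164, plus strand), of which MSH6 rose and the other two fell:
FANCD2: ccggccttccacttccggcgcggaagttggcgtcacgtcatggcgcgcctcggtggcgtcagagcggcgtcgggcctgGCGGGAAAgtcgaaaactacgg
FANCA: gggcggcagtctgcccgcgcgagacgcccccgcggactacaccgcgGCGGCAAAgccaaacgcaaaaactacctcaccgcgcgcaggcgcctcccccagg
MSH6: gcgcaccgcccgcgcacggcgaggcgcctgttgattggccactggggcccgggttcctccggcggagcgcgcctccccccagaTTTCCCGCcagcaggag
The ETS motif stands in RAD51D (chr17:35119841-35119940, minus strand), BRCA2 (chr13:32315373-32315472, plus strand) and ATR (chr3:142578726-142578825, minus strand, 1 of 2 matches in its window), of which RAD51D fell and the other two rose:
RAD51D: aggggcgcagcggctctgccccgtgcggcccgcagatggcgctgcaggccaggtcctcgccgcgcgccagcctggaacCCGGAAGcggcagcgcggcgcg
BRCA2: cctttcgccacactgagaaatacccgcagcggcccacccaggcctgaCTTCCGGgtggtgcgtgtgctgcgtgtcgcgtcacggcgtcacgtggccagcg
ATR: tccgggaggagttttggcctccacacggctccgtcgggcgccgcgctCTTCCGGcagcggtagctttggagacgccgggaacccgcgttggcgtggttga

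Among the recombination genes, RAD51B, RAD51C, RAD51D, XRCC2 and XRCC3, whose proteins form complexes that act at single-stranded DNA, did not move together. RAD51D was at 1.97 and 1.45 CPM with GNE987 and at 47.6 and 35.4 CPM without, a fall of 24.1-fold and the largest of the 45 genes. Its log2 fold change was -4.59 ± 0.25 (SE, adjusted p = 0.000295, edgeR), and the gene lies on chromosome 17 from 35092208 to 35121522 (GRCh38, minus strand). RAD51B was at 1.58 and 0.580 CPM with treatment and at 9.79 and 7.21 CPM without. The gene spans 910440 bases of chromosome 14, the longest of the set, and its log2 fold change was -2.96 ± 0.48 (adjusted p = 0.00387), or -3.87 without GNE987 replicate 1 and -2.45 without GNE987 replicate 2. RAD51C, the subunit shared by these complexes, fell from 43.5 ± 5.12 to 23.9 ± 2.86 CPM (SD, n = 2), a change of -0.86 ± 0.15 (adjusted p = 0.00525). Without GNE987 replicate 2 it did not pass (adjusted p = 0.0591). XRCC2, which binds RAD51D, was at 25.0 ± 0.649 CPM without and 21.6 ± 1.27 CPM with treatment and did not pass (-0.21 ± 0.13, adjusted p = 0.181, and 0.0187 with library size alone). XRCC3, the partner of RAD51C, rose from 62.4 ± 4.17 to 90.4 ± 1.78 CPM (0.53 ± 0.11, adjusted p = 0.00926), but did not pass without either treated library (0.094 and 0.112) or with library size alone (0.289). It shares 76.7% of its annotated exon bases with an overlapping gene on the opposite strand, so its reads are uncertain.

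The BRCA genes, which act at resected breaks, also differed from each other. BRCA2, which acts in strand exchange, was at 30.5 and 27.9 CPM with GNE987 and at 14.7 and 16.1 CPM without. Both treated libraries were higher than both untreated ones, where 91.1% of all tested genes had groups that did not overlap. The log2 fold change was 0.92 ± 0.14 (adjusted p = 0.00292). BRCA1, a ubiquitin ligase that promotes resection, was at 22.6 and 18.4 CPM with GNE987 and at 25.9 and 24.0 CPM without (-0.28 ± 0.15, adjusted p = 0.152). Without untreated replicate 2 the change of BRCA1 was -0.32. BARD1, the obligate partner of BRCA1, had a change of -0.15 ± 0.12 and PALB2, the bridge between BRCA1 and BRCA2, one of 0.16 ± 0.12, and neither passed (adjusted p = 0.293 and 0.273). With library size alone both BRCA1 and BARD1 passed as lower, and PALB2 had a change of -0.21. PALB2 passed as higher with upper-quartile scaling (0.36, adjusted p = 0.0441) and with a filter of 10 CPM in 2 libraries (0.33, adjusted p = 0.034), where BARD1 was at 0.05 and 0.02. BRIP1, a helicase that binds BRCA1, fell by 0.64 on the log2 scale (SE 0.14, adjusted p = 0.0106), but did not pass without either treated library (adjusted p = 0.0517 and 0.0962).

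Genes of end resection fell in part. RBBP8 encodes CtIP, which starts resection together with the MRE11 complex, and was at 19.1 and 16.2 CPM with GNE987 and at 57.5 and 45.7 CPM without (-1.55 ± 0.17, adjusted p = 0.0013). NBN, the subunit that recruits ATM to breaks, was at 12.1 and 10.7 CPM with treatment and at 44.8 and 37.5 CPM without (-1.85 ± 0.16, adjusted p = 0.00058). Its partner MRE11, the nuclease, was at 22.6 ± 2.06 CPM without and 17.4 ± 1.8 CPM with treatment. It missed the threshold (-0.38 ± 0.15, adjusted p = 0.0700), but passed without the filter on low counts (0.0345) and with library size alone (0.00894). Without untreated replicate 1 its change was -0.53. RAD50, the ATPase of this complex, had the lowest counts of the set, 6 and 8 in the treated and 68 and 42 in the untreated libraries, or 0.394, 0.580, 3.05 and 2.07 CPM. The change was -2.39 ± 0.46 (adjusted p = 0.00661, and 0.0570 without GNE987 replicate 1). RAD50 shares 79.7% of its annotated exon bases with other genes, and whether reads there were counted is not given in the sources used here.

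Of the enzymes that act after strand pairing, RAD54L, a motor protein of strand exchange, was at 19.7 and 18.8 CPM with GNE987 and at 43.9 and 36.6 CPM without (-1.07 ± 0.14, adjusted p = 0.00228). Its relative RAD54B was at 1.77 and 2.03 CPM against 4.62 and 4.64 CPM (-1.28 ± 0.29, adjusted p = 0.0108). RAD54B did not pass without either treated library (0.0730 and 0.0552), and 59.1% of its exon bases are shared with another gene. RAD52, which anneals single strands, rose from 13.7 ± 2.55 to 19.9 ± 0.314 CPM (0.53 ± 0.18, adjusted p = 0.0406). This call was among the least firm of the set: it was lost without either treated library (0.163 and 0.188) and without untreated replicate 1 (0.105), where the log2 fold change was 0.29. It was also lost in the DESeq2 test (0.0833), without the filter on low counts (0.137) and with library size alone (0.461). The RecQ helicases BLM and WRN, which dissolve recombination intermediates, had changes of 0.10 ± 0.13 and 0.02 ± 0.15 and did not pass (adjusted p = 0.503 and 0.929). With library size alone their values were -0.27 and -0.35.

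**Figure D3:**
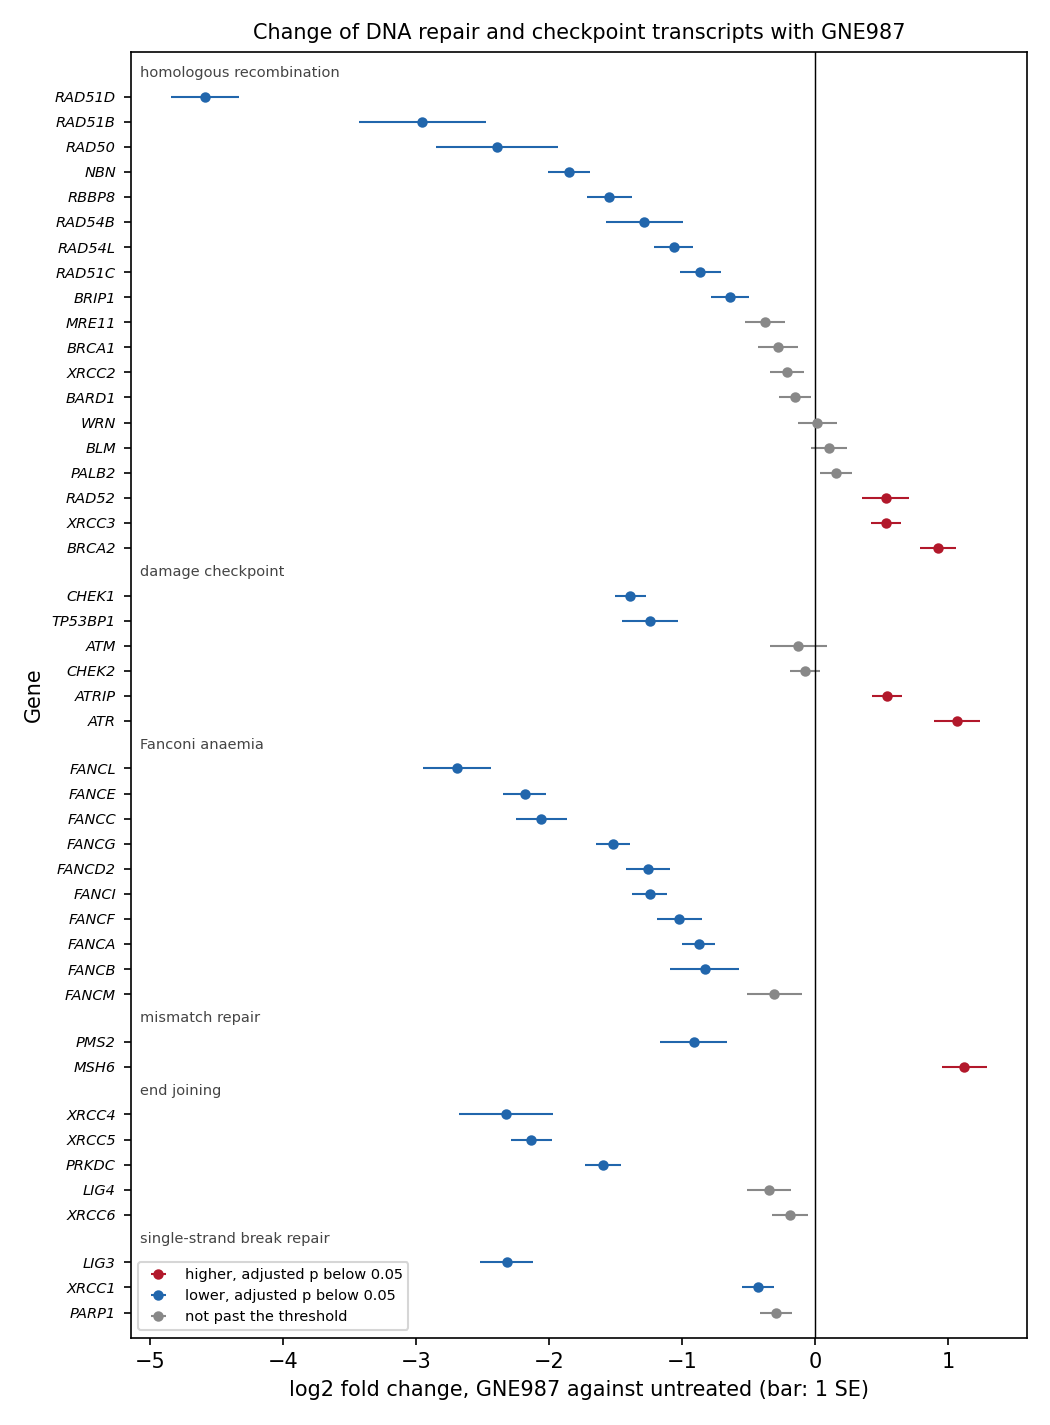
Log2 fold change of each gene (GNE987 against untreated) with 1 SE, grouped by repair route and coloured by call. RAD51D lies farthest left at -4.59, and MSH6 and ATR farthest right at 1.12 and 1.07.

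In the checkpoint, the apical kinase complex ATR-ATRIP and the effector kinase CHEK1 moved in opposite directions. ATR, which senses single-stranded DNA at stalled forks, was at 33.9 and 26.5 CPM with GNE987 and at 13.4 and 15.4 CPM without. That was a rise of 2.10-fold (log2 fold change 1.07 ± 0.18, adjusted p = 0.00409), and 16.4% of its exon bases are shared with a gene on the opposite strand. ATRIP, which binds ATR and carries it to RPA-coated DNA, rose from 34.7 ± 1.75 to 50.6 ± 0.367 CPM (0.54 ± 0.11, adjusted p = 0.00872), although it did not pass without either treated library (0.0971 and 0.0920). CHEK1, the kinase that ATR phosphorylates, was at 34.1 and 35.1 CPM with treatment and at 94.8 and 86.7 CPM without. It fell 2.62-fold (-1.39 ± 0.12, adjusted p = 0.000538), and with 1 library left out its change lay between -1.45 and -1.38.

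The branch that responds to double-strand breaks did not move as a unit. ATM, its apical kinase, was at 17.3 and 12.1 CPM with GNE987 and at 17.0 and 15.2 CPM without, with overlapping groups (-0.13 ± 0.21, adjusted p = 0.612). The sign of this value turned with upper-quartile scaling (0.07). CHEK2, the kinase downstream of ATM, was at 59.6 ± 2.34 CPM without and 56.7 ± 3.16 CPM with treatment (-0.07 ± 0.11, adjusted p = 0.578), and its sign turned in the same way (0.12). TP53BP1 encodes 53BP1, which protects broken ends from resection, and was at 11.2 and 9.06 CPM with GNE987 and at 27.4 and 20.6 CPM without (-1.24 ± 0.21, adjusted p = 0.00441). With library size alone CHEK2 also passed as lower (-0.45), while ATRIP did not pass (0.17, adjusted p = 0.348).

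Among the routes of the chosen set, the Fanconi anaemia genes showed the most uniform pattern by count, with 9 of 10 lower and 0 higher. Over all tested genes 37.2% were lower and 34.4% higher. The median log2 fold change of these Fanconi genes was -1.25. This pattern did not extend to the 10 additional Fanconi genes of the other repair list given below. Of those additional genes 4 fell and 3 rose, and their median log2 fold change was 0.12. The core complex is a ubiquitin ligase that modifies the FANCD2-FANCI clamp on damaged DNA, and its catalytic subunit is FANCL. FANCL was at 1.64 and 1.45 CPM with GNE987 and at 10.8 and 9.33 CPM without, a fall of 6.47-fold (-2.69 ± 0.26, adjusted p = 0.000797), and 19.7% of its exon bases are shared with genes on the opposite strand. FANCE, which links the core to FANCD2, was at 7.81 and 8.70 CPM against 41.0 and 34.1 CPM (-2.19 ± 0.16, adjusted p = 0.000423). Its neighbour in the complex FANCC was at 5.45 and 4.71 CPM against 23.3 and 19.1 CPM (-2.06 ± 0.19, adjusted p = 0.000767). FANCF, a core adaptor encoded in 2952 bases without introns on chromosome 11 from 22622890 to 22625841, was at 7.09 and 7.25 CPM against 14.99 and 14.1 CPM (-1.02 ± 0.17, adjusted p = 0.00413). For each of these 4 subunits both treated libraries lay below both untreated ones, but the groups did not overlap for 91.1% of all tested genes either. The change of each stayed negative with each of the 4 libraries left out.

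FANCG and FANCA form another module of the core. FANCG was at 32.4 and 31.6 CPM with GNE987 and at 98.9 and 84.9 CPM without (-1.52 ± 0.13, adjusted p = 0.000554), and FANCA fell from 35.0 ± 0.837 to 19.1 ± 0.813 CPM (-0.88 ± 0.12, adjusted p = 0.00252). FANCB, which sits with FANCL in the catalytic module, fell from 6.04 ± 0.159 to 3.39 ± 0.529 CPM (-0.83 ± 0.26, adjusted p = 0.0316), but did not pass without either treated library (0.157 and 0.0805), in the DESeq2 test (0.0901) or with upper-quartile scaling (0.0747). FANCM, the translocase that anchors the core to DNA, was the gene of this route that did not pass (-0.31 ± 0.21, adjusted p = 0.226, and 0.043 with library size alone). The clamp genes fell by similar amounts. FANCD2 was at 27.2 and 22.7 CPM against 66.1 and 53.4 CPM (-1.26 ± 0.17, adjusted p = 0.00217), and FANCI was at 65.7 and 65.4 CPM against 167.1 and 143.7 CPM (-1.25 ± 0.13, adjusted p = 0.00103).

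The mismatch repair genes here, 1 from each of its protein families, moved in opposite directions. MSH6, which recognises single-base mismatches, was at 14.8 and 16.3 CPM with GNE987 and at 7.05 and 7.26 CPM without. It had the highest log2 fold change of the 45 genes (1.12 ± 0.17, adjusted p = 0.00317), and an overlapping gene on the opposite strand shares 16.2% of its exon bases. PMS2, the endonuclease subunit that nicks the new strand, was at 10.4 ± 3.56 CPM with and 19.7 ± 0.126 CPM without treatment (-0.91 ± 0.25, adjusted p = 0.0222). The treated libraries of PMS2 stood apart, at 12.9 and 7.90 CPM, and without GNE987 replicate 2 the gene did not pass (-0.63, adjusted p = 0.0827). PMS2 also has near-identical pseudogene copies, so its counts are uncertain.

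End joining begins with the Ku heterodimer of XRCC5 (Ku80) and XRCC6 (Ku70), which clamps onto broken ends and recruits the kinase PRKDC. XRCC5 was at 114 and 111 CPM with GNE987 and at 544 and 445 CPM without, a fall of 4.39-fold (-2.13 ± 0.16, adjusted p = 0.000403). XRCC6 was at 714 and 773 CPM with treatment and at 875 and 820 CPM without (-0.19 ± 0.13, adjusted p = 0.242). It passed with library size alone (-0.57, adjusted p = 0.00772), and without untreated replicate 2 its change was -0.23. PRKDC, the DNA-dependent protein kinase, was at 28.6 and 27.1 CPM against 91.5 and 76.8 CPM (-1.59 ± 0.14, adjusted p = 0.00058). XRCC4, the scaffold of the final ligase, was at 1.12 and 1.96 CPM against 8.44 and 6.91 CPM (-2.32 ± 0.35, adjusted p = 0.00328). LIG4, the ligase itself, was at 13.2 ± 1.8 CPM with and 16.9 ± 0.395 CPM without GNE987. It did not pass (-0.35 ± 0.16, adjusted p = 0.105, and 0.0166 by library size alone), and without untreated replicate 1 its change was -0.39.

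Single-strand breaks are found by PARP1 and sealed by LIG3 on the scaffold XRCC1. LIG3 was at 6.43 and 4.93 CPM with GNE987 and at 30.8 and 26.1 CPM without (-2.32 ± 0.20, adjusted p = 0.000575), and 30.5% of its exon bases are shared with genes on the opposite strand. XRCC1 fell from 45.4 ± 1.43 to 33.7 ± 2.26 CPM (-0.43 ± 0.12, adjusted p = 0.022), but not past the threshold without either treated library (0.183 and 0.0996) or in the DESeq2 test (adjusted p = 0.0537), with upper-quartile scaling (0.145) or with the 10 CPM filter (0.08). PARP1 was at 317 and 321 CPM with treatment and at 401 and 381 CPM without. Both treated libraries were lower, where 91.1% of all tested genes had groups that did not overlap. The change of -0.29 ± 0.12 did not pass (adjusted p = 0.0758). It passed without the filter on low counts (0.0328) and with library size alone (0.00442). Without either untreated library its change was -0.32.

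Levels per length were read from the deposited FPKM values (fragments per kilobase). Within a gene these follow the count over the authors' size factor for each library, not over the library total. Their length term tracked all annotated exon bases of a gene, such as 11304 for RAD51D, 10993 for MSH6 and 3288 for XRCC6. Bases shared with other genes are included, 79.7% of them for RAD50. Ranks and ratios between genes therefore depend on the annotation. The median of the 45 genes was 4.31 FPKM without and 2.61 FPKM with GNE987. XRCC6 was highest in both groups, at 254.6 and 223.4 FPKM. XRCC5 followed in untreated cells at 89.4 FPKM, ahead of PARP1 at 53.9 FPKM, and in treated cells PARP1 at 44.0 FPKM stood above XRCC5 at 20.4 FPKM. RAD50 was lowest in both groups, at 0.260 and 0.0492 FPKM. FANCE moved from rank 6 at 13.8 FPKM to rank 19 at 3.03 FPKM, and MSH6 from rank 44 at 0.642 FPKM to rank 33 at 1.40 FPKM.

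Ratios of FPKM between partner genes were compared library by library. The 10 pairs were chosen after the values were seen, and with 2 libraries a group the exact two-sided permutation test cannot give less than 0.333. XRCC5 to XRCC6 was 0.0963 and 0.0863 with GNE987 and 0.374 and 0.326 without, lower in both treated libraries (exact permutation p = 0.333). RAD51D to XRCC2 was 0.0377 and 0.0301 against 0.804 and 0.620. NBN to MRE11 was 0.811 and 0.823 against 2.64 and 1.95, so with the lengths used the order of this pair turned. FANCD2 to FANCI, in contrast, was 0.385 and 0.322 against 0.367 and 0.345, and BARD1 to BRCA1 was 1.61 and 1.94 against 1.58 and 1.65. The treated and untreated libraries overlapped for both of these pairs.

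**Figure D4:**
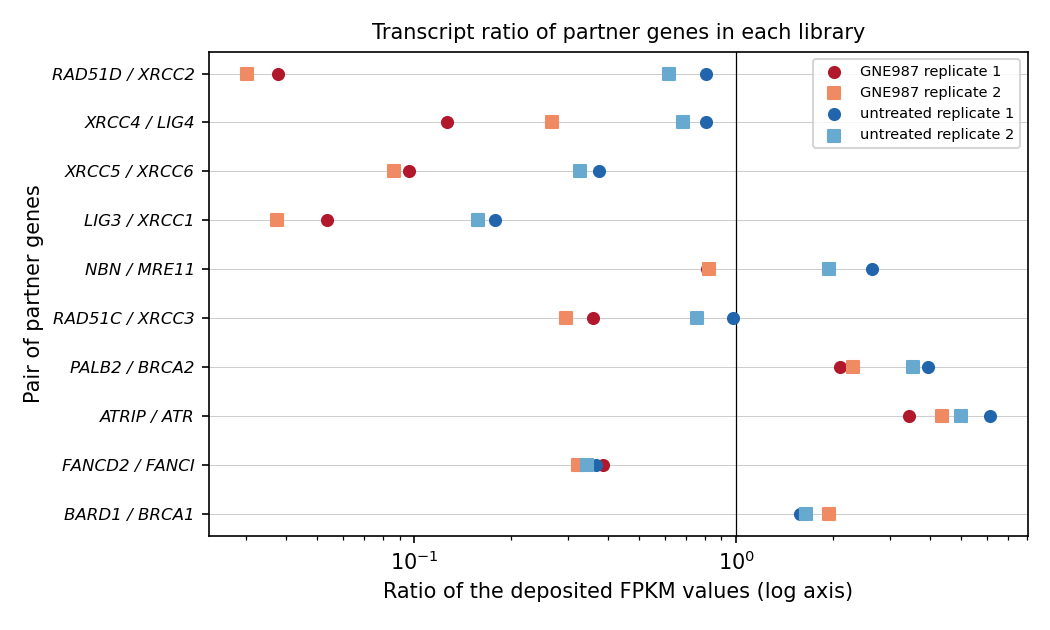
Ratio of the deposited FPKM values (log axis) of 10 pairs of partner genes in each library, with a line at a ratio of 1. The treated and untreated libraries overlap for FANCD2 / FANCI and for BARD1 / BRCA1, and those of RAD51D / XRCC2 lie farthest apart.

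Other repair genes were read from a list of 120 genes outside the 45, of which 119 were tested. Of these 65 fell and 27 rose, and the median of their log2 fold changes was -0.52. The counts in this paragraph stand beside shares of 37.2% lower and 34.4% higher over all tested genes. Nucleotide excision genes fell in 13 of 20 cases and rose in 4, and base excision genes fell in 12 and rose in 4 of 20. Additional recombination genes fell in 18 of 27 cases and rose in 6, and additional end-joining genes fell in 6 of 10 and rose in 1. Translesion synthesis genes fell in 3 and rose in 4 of 12 cases, and additional Fanconi genes fell in 4 and rose in 3 of 10. Additional checkpoint genes fell in 7 and rose in 4 of 16, and additional mismatch genes fell in 2 and rose in 1 of 4. With library size alone 75 of the 119 were lower and 15 higher. Of the 118 tested without GNE987 replicate 1, 44 were lower and 12 higher, and of the 118 tested without GNE987 replicate 2, 42 and 13.

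Among genes of that list with a mean of at least 5 CPM, the largest fall was of WDR48, a cofactor of the enzyme that removes ubiquitin from FANCD2, at 1.18 and 0.435 CPM with GNE987 and 36.0 and 28.99 CPM without (-5.29 ± 0.38, adjusted p = 0.000385). Its value was -6.22 without GNE987 replicate 1 and -4.79 without GNE987 replicate 2. ETAA1, an activator of ATR, followed at -4.55 ± 0.37, then GTF2H1, a subunit of the repair and transcription factor TFIIH, at -3.37 ± 0.16, and ERCC4, a nuclease of excision and crosslink repair, at -3.28 ± 0.30. The largest rises were of POLH, the polymerase that bypasses ultraviolet lesions, at 1.93 ± 0.27, and XPC, which recognises bulky lesions, at 1.85 ± 0.29. CDC25B, a phosphatase that releases the G2 checkpoint, and ERCC5, a nuclease of excision repair, were both at 1.43 (SE 0.20 and 0.25). The treated libraries of XPC were at 137 and 138 CPM, and its untreated libraries stood apart, at 26.9 and 49.6 CPM.

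Many repair genes are transcribed in step with the cell cycle, and genes of its phases moved too. Of 30 S phase genes outside the 45, 20 fell and 7 rose (median -0.80). Of 49 tested G2 and M phase genes 39 rose and 4 fell (median 1.09). The shares over all tested genes were 37.2% lower and 34.4% higher. Without either treated library 3 S phase genes were higher, 16 and 14 lower, and 27 G2 and M phase genes were higher. Their part in the repair results was not tested, and in bulk RNA fewer cells in a phase and less RNA per cell cannot be told apart. For 9 of the 45 genes (ATRIP, FANCA, LIG3, RAD50, RAD54B, RAD54L, TP53BP1, XRCC1 and XRCC3) over 20% of exon bases are shared with another gene, and 7 of these fell and 2 rose. Of the other 36 genes 19 fell and 4 rose. Gene span was set beside the changes as well. Spearman's rho between span and log2 fold change was -0.07 across them and -0.20 across all 15910 tested genes, a description over genes that share the same libraries. The genes up to the median span of 75.5 kb had a median change of -0.86, and the longer ones had a median of -0.76.

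Per the authors' deposited table, 24 of the 45 genes were lower and 5 higher at its adjusted p below 0.05. For 42 of them the call was the same as in the edgeR test. RAD52, FANCB and XRCC1 were the genes not called there, and the same 3 were lost in the DESeq2 test run here. The deposited values nearly equal those of that test on the same counts (BRCA1 at -0.2798 in both). They are therefore not separate support.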

How the data were processed

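RNA-seq of 2 GNE987-treated and 2 untreated Jurkat libraries was analysed from 1 table. Per the labels' protocols the library kit was Illumina TruSeq RNA. The strand setting of the counts is not given in the sources consulted, so reads in bases shared by overlapping genes may not have been told apart. HISAT2 2.2.0 and hg38 are named in the submitters' processing notes; the counter and annotation are not given in the sources consulted. The deposited columns are raw counts per gene, a normalized signal equal to the count over 1 size factor per library (100% within 0.01), FPKM proportional to that signal, and the authors' log2 fold change, p-value and adjusted p-value.

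Counts were tested with edgeR 4.0.16 in R 4.3.3 (filterByExpr with a minimum count of 10 and total of 15, TMM, glmQLFit, glmQLFTest, 2 residual degrees of freedom), treated against untreated. Of 26733 genes 15910 were kept. The Benjamini-Hochberg adjustment ran over all of them, with a threshold of 0.05. The standard error is the log2 fold change over the square root of F. CPM are TMM-scaled, and 3 counts equal 0.158 to 0.187 CPM by library total, counting error only. Whether replicates came from different cultures is not in the labels; if they did not, the p-values reflect technical spread alone. Replicates differed by a chi-square of 4.55 (treated) and 34.0 (untreated) per degree of freedom.

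All 45 genes are named. Values per library are given for those past the threshold with a log2 fold change of at least 1 in size and for BRCA1, BRCA2, ATM, ATR, CHEK1, FANCD2, MSH6, PRKDC and PARP1. From the other repair list, the 4 genes that rose most and the 4 that fell most are named, if their mean level reached 5 CPM. Members and lists were chosen with earlier results of these data known. Coordinates and exon overlaps are from GENCODE release 29 (GRCh38). Alternatives were RLE factors, upper-quartile scaling, library size alone, the DESeq2 1.42.0 Wald test, no filter, a filter of 10 CPM in 2 libraries, robust estimation, a replicate block and each library left out.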

Additional observations from a re-analysis of the deposited data

How the results depend on the processing

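No gene called among the 45 changed direction under any of the 12 alternatives in which it was tested; over the 45 genes and these alternatives 484 values stayed on their side of the threshold, 31 lost the call and 19 gained it. Among uncalled genes the sign turned in at least 1 alternative for BARD1, PALB2, BLM, WRN, ATM, CHEK2 and XRCC6. The number of higher repair genes, 6, was 3 with library size alone and between 3 and 6 with 1 library left out; that of lower genes, 26, was between 20 and 29 with 1 library left out. All genes called, 11387, were between 6306 (without GNE987 replicate 1) and 13341 (without untreated replicate 2). The median log2 fold change of the 45 genes, -0.86, was -0.47 with a filter of 10 CPM, which left 39 of them. It was -1.24 with library size alone, -1.01 without a filter and -0.67 with upper-quartile scaling. The median over the same 15910 tested genes, -0.03, was -0.41 with library size alone and 0.16 with upper-quartile scaling. The cause was not tested. The medians of checkpoint and mismatch genes changed sign: checkpoint genes, -0.10, were at 0.072 with the 10 CPM filter, 0.10 with upper-quartile scaling and between -0.28 and 0.024 with 1 library left out. Mismatch genes, 0.10, were at -0.27 with library size alone, -0.043 without a filter and between -0.077 and 0.20 with 1 library left out. Same-numbered libraries did not deviate together (r = -0.006 across genes), and with the replicate number as a block 5 genes were higher and 24 lower, RAD52, FANCB and XRCC1 being lost (9801 of all genes called). With 1 treated library left, that library is assumed to vary like the untreated ones. With 1 untreated library left, that library is assumed to vary like the treated ones. The treated pair differed less, by a chi-square of 4.55 against 34.0 per degree of freedom. Adjusted p-values without an untreated library can thus be too small, and calls gained there are not firm. Depth limits genes with few treated counts, such as RAD50 with 6 and 8 and RAD51B with 24 and 8. The median of other repair genes, -0.52, was -0.32 with the 10 CPM filter or upper-quartile scaling and -0.89 with library size alone.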
